A study of Mus musculus with 4 samples.

Results

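Malat1, Neat1, Meg3, H19, Gas5, Snhg1, Snhg8 and Snhg12 are genes of long noncoding RNAs, transcripts that act or are turned over without being translated into a protein. They were taken by gene symbol from a matrix of capped RNA 5′ ends, in which they are 8 of 17849 genes and hold 114 of 69391 rows. Each row is a cluster of neighbouring 5′ ends, and the rows of a gene were summed. The data are cap analysis of gene expression (CAGE), which counts a short tag at the capped end of each RNA, so a level in CPM (tags scaled to the same total in every library) does not grow with transcript length and can be compared between genes.

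The 4 libraries form a single group, lesional facial skin of C57BL/6 mice at postnatal day 28. All carry the genotype Nectin-cre(+);Ikk2FL/FL;Postn-/-, which is the FADS dermatitis model (Ikk2, a kinase of the NF-kB pathway, floxed and met by a Cre transgene) on a background with no periostin gene. The Cre driver is written Nectin in the labels, which leave unstated the cells where it acts, the meaning of the codes on the samples and the number of animals behind them. P-values therefore measure sample spread alone, and that spread may be technical. There is no healthy skin and no mouse with Postn among them, so no value below says what the lesion or the genotype does.

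Long noncoding RNAs differ in where they work. Malat1 and Neat1 stay in the nucleus, Malat1 in the speckles that store splicing factors and Neat1 as the scaffold of paraspeckles, bodies built with RNA-binding proteins such as Sfpq. H19 and Meg3 come from imprinted loci, where only the maternal copy is active, and are best known from embryonic tissues. Gas5 and the Snhg genes are hosts of small nucleolar RNAs (snoRNAs), which are cut from their introns and guide the modification of ribosomal and spliceosomal RNA. The spliced exons of several hosts are exported and degraded quickly.

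Over all rows, libraries 1 to 4 summed to 18179860, 18823630, 17630119 and 17939565 tags, and 1 tag was worth 0.0531 to 0.0567 CPM. Of these rows 2072 repeat a cluster that is listed under more than 1 gene, so its tags count more than once. Counting each cluster once gave 17026618, 17691558, 16492915 and 16787072 tags. CPM and percentages of tags use the totals over all rows. Keratinocyte markers matched the labelled skin, with all 10 markers of the basal list and all 10 of the suprabasal list analysed, at 2735 ± 457 and 17394 ± 2796 CPM in sum (SD, n = 4). Libraries 2 and 4 stood apart in secreted gland proteins: the 9 analysed genes of a list of 14 summed to 16.7, 48393, 11.9 and 11169 CPM in libraries 1 to 4, with Gm1553, Mucl2, Obp1a, Smr3a and Pip at 0 in library 3. Hair shaft and inner root sheath genes summed to 15491, 13913, 6332 and 8022 CPM. The 10 macrophage genes summed to 136 ± 13.9 CPM and the 10 endothelial genes to 110 ± 24.0 CPM.

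Together the 8 genes took 1.73%, 1.64%, 1.74% and 1.69% of the tags over all rows. Malat1 and Neat1 made up nearly all of this, with 1.64% ± 0.0448 (SD, n = 4), while the 4 snoRNA hosts took 0.0607% ± 0.00344 and the imprinted pair 0.00145% ± 0.00054. The word abundant, by which the set goes, held for Malat1, Neat1 and Gas5. By mean CPM they ranked 1, 2 and 193 of 17037 analysed genes. It did not hold for the others: the median gene stood at 17.12 CPM and the 90th percentile at 103 CPM, H19 ranked 9366 and Meg3 ranked 14565.

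**Figure D1:**
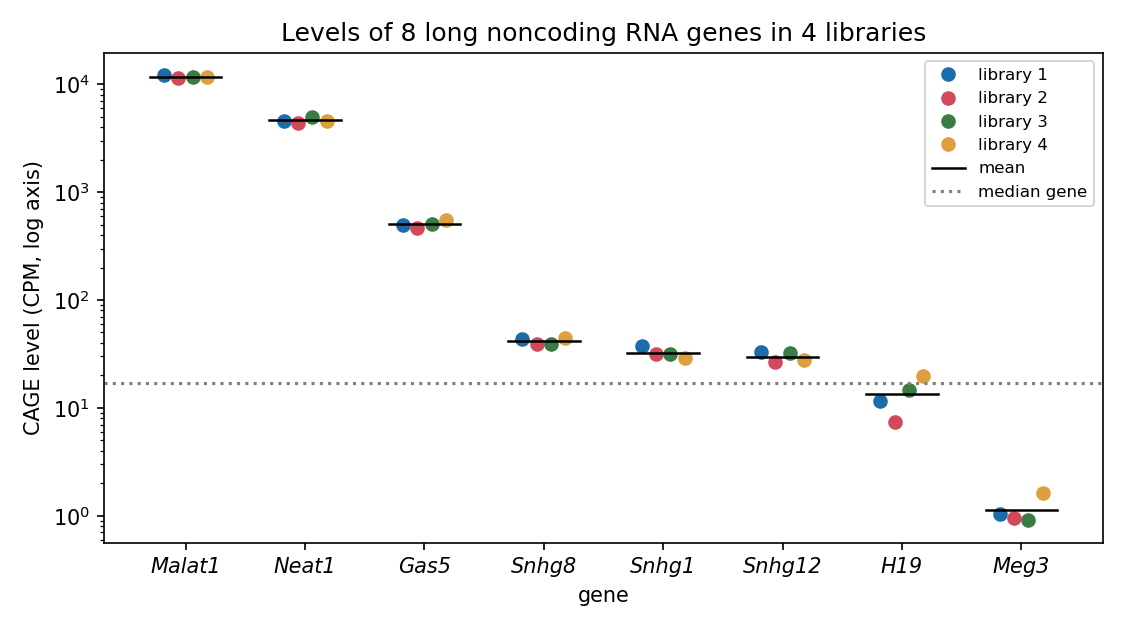
Levels of the 8 genes in CPM on a log axis, 1 point per library and a bar at the mean of 4 libraries, with the median analysed gene as a dotted line. Malat1 at 11730 CPM and Meg3 at 1.13 CPM mark the ends, and the points of Snhg1 and Snhg12 overlap.

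The genes fell into a ladder whose steps were mostly far wider than the spread between libraries. Malat1 exceeded Neat1 by 2.53-fold (log2 ratio 1.34 ± 0.07, SD, n = 4), Neat1 exceeded Gas5 by 9.22-fold (3.20 ± 0.10) and Gas5 exceeded Snhg8 by 12.2-fold (3.60 ± 0.08). Further down, Snhg8 over Snhg1 gave 1.28-fold (0.36 ± 0.17), with ranges that did not touch. Snhg1 and Snhg12 did not differ beyond their spread, at 1.08-fold (0.11 ± 0.13), with Snhg1 higher in 3 of 4 libraries, and their order turned round (log2 -0.70 ± 0.12) when only the most used cluster of each gene was counted. Snhg12 over H19 gave 2.37-fold (1.25 ± 0.57) and H19 over Meg3 11.1-fold (3.48 ± 0.44). In an exact sign-flip permutation test over 4 libraries, two-sided, the other 6 of the 7 neighbouring pairs reached the smallest p that the design allows, which is 2 of 16 sign patterns and stays above 0.05 (adjusted p = 0.146), while Snhg1 against Snhg12 gave p = 0.25. Steps that involve Gas5 or Snhg1 depended on the clusters counted: with clusters at an annotated start that span no later exon, chosen after the values were seen, the log2 ratio of Neat1 over Gas5 was 4.63, of Gas5 over Snhg8 2.18, of Snhg8 over Snhg1 1.56 and of Snhg1 over Snhg12 -1.07.

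Malat1 had the highest mean level of any analysed gene. It stood at 12102, 11419, 11773 and 11627 CPM in libraries 1 to 4, a mean of 11730 ± 287 CPM. In library 2, Bpifa2 of the gland list stood above Malat1, at 16004 CPM. In unscaled CPM, Malat1 was highest in library 1 and lowest in library 2, 1.06-fold apart. The order changed after TMM scaling, as used in the test of spread below. Library 2 was then highest (log2 13.59) and library 4 lowest (13.45). The gene (ENSMUSG00000092341.3) lies on the minus strand of chromosome 19, from 5795690 to 5802672 on GRCm38. One cluster of 81 bases, chr19:5802596-5802676, took 98.7% ± 0.0276 of its tags; it is exonic, spans 2 annotated transcript starts and is listed under no other gene.

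The start region is printed to show where these caps fall. It is the RefSeq promoter on GRCm38.p6, minus strand, chr19:5802623-5802722, and the capitals mark bases inside that cluster.
Malat1: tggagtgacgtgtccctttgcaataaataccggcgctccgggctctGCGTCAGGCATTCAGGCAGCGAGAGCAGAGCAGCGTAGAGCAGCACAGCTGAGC

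Besides the start, Malat1 had 76 smaller listed clusters, in a group near the start and another in the far part of the gene, which summed to 148 CPM (1.26% of its tags). The largest of them, chr19:5801892-5802029, held 36.3 ± 1.96 CPM and spans the first base of the second exon of the spliced transcript Malat1-203, at 5801966. Between these groups lay another 35 clusters listed only under other genes (50.5 ± 3.75 CPM) and 41 with no gene name (158 ± 12.5 CPM). The highest of these, 1308 bases after the gene start, held 91.1 CPM and has no gene name. The origin of the tags inside the gene was not tested.

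Neat1 had the second highest mean, at 4601, 4387, 4983 and 4593 CPM, a mean of 4641 ± 248. In library 2, Neat1 also stood under the gland genes Bpifa2 (16004 CPM), Mucl2 (9099 CPM) and Gm1553 (8971 CPM). In unscaled CPM, library 3 was highest and library 2 lowest, 1.14-fold apart. After TMM scaling library 3 stayed highest (log2 12.22), library 2 followed (12.21) and library 4 was lowest (12.11). Neat1 (ENSMUSG00000092274.3) lies near Malat1 on the minus strand of chromosome 19, from 5824708 to 5845478. A cluster of 238 bases, chr19:5845308-5845545, took 99.7% ± 0.0456 of its tags and spans 2 annotated starts. The same cluster is also listed under Gm27533, Gm27505 and Gm28006, and 99.97% of the tags of Neat1 are shared in this way. The short and the long Neat1 transcript, of which the long one builds the paraspeckle, begin at this place, so 5′ tags do not tell them apart.

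**Figure D2:**
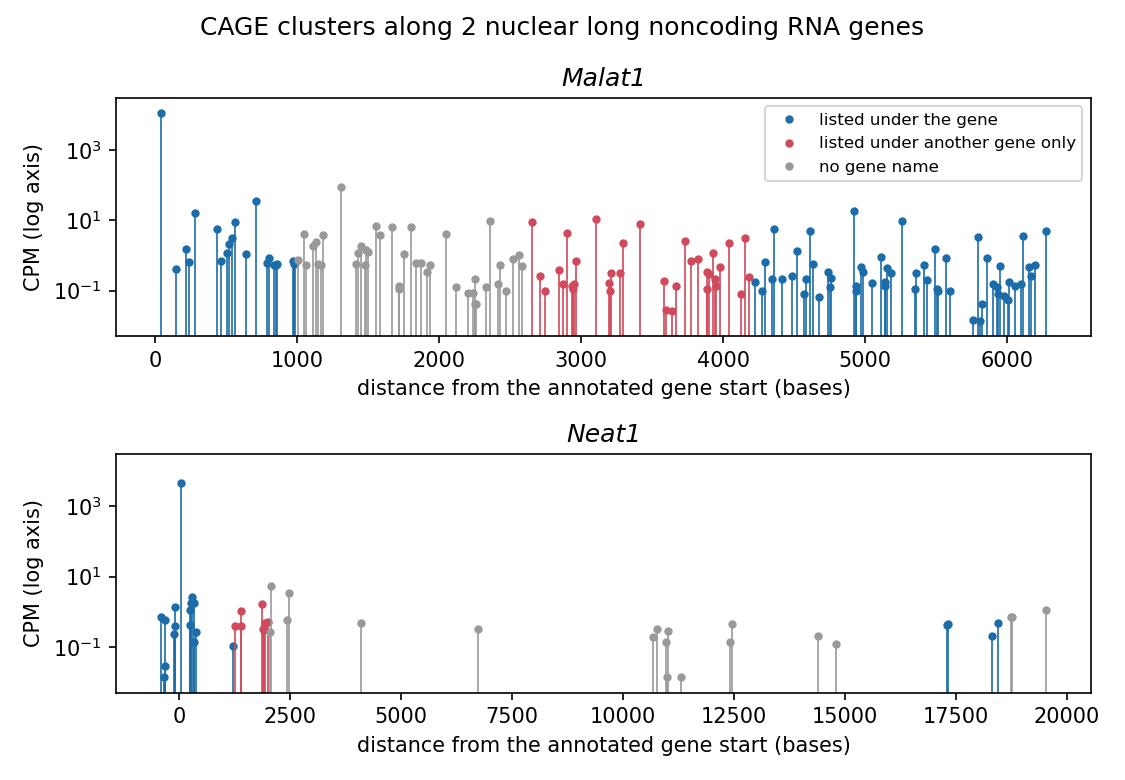
Mean level of each cluster in CPM on a log axis against its distance in bases from the annotated start of Malat1 (upper panel) and Neat1 (lower panel), coloured by the gene it is listed under. In both genes the cluster at the start is far above every other one; the highest other cluster holds 91.1 CPM in Malat1 and 5.22 CPM in Neat1.

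In Neat1 the body was sparser than in Malat1: 19 clusters with no gene name summed to 14.6 ± 1.73 CPM and 8 listed only under other genes to 5.07 ± 0.276 CPM. The highest of them, at 5.22 CPM, lay 2079 bases after the start. Against these levels, the protein genes of the paraspeckle summed to 1943 ± 122 CPM over 15 analysed of 16 listed genes, led by Sfpq at 392 ± 48.4 and Ewsr1 at 304 ± 17.7 CPM. The SR splicing factors found in speckles summed to 3609 ± 124 CPM over 14 genes, led by Srsf5 at 905 ± 32.0, Srrm2 at 475 ± 12.8 and Srsf2 at 392 ± 12.03. The median log2 ranges of these lists were 0.16 and 0.13, against 0.28 over all tested genes, and no gene of either passed the test of spread described below. Among other nuclear or abundant long noncoding RNAs, 15 analysed of 20 summed to 563 ± 55.2 CPM, with Xist, the RNA of the inactive X chromosome, at 259 ± 38.8, Tug1 at 59.5 ± 1.73 and Dleu2 at 53.8 ± 5.93. Their median range was 0.29, and none of the 14 that were tested passed.

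H19 was the member that varied most between libraries. It stood at 11.7, 7.38, 14.6 and 19.6 CPM (212, 139, 258 and 352 tags) in libraries 1 to 4, a mean of 13.3 ± 5.15 CPM. Library 4 was 2.66-fold above library 2. All tags of H19 (ENSMUSG00000000031.16, chromosome 7, minus strand, 142575529 to 142578143) lay in 1 exonic cluster of 60 bases, chr7:142578090-142578149, which spans 2 annotated starts and is also listed under Mir675, the microRNA carried in the first exon of H19.

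The spread of each gene was set against that of genes of its level with limma, on log2(CPM + 1) after TMM scaling, with a one-sided F test adjusted over 14732 genes. None of the 8 genes passed an adjusted p of 0.05; over all genes 61 passed (0.414%). At an unadjusted p under 0.05 by limma there was 1 of the 8, H19, against 6.38% of all tested genes. The adjusted p of H19 was 0.639 by limma, with a log2 range of 1.14, wider than that of 97.5% of the 4645 genes within 1 log2 unit of its level. The count of members was also 0 by edgeR on the recovered tags (0.224% of all genes passed) and by DESeq2's dispersion outliers (1.60%). The count over all genes rested on single libraries: 118 passed without library 3 and 13 without library 4. Without library 2 the log2 range of H19 was 0.65 and without library 4 it was 0.74, and neither left its unadjusted p under 0.05.

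**Figure D3:**
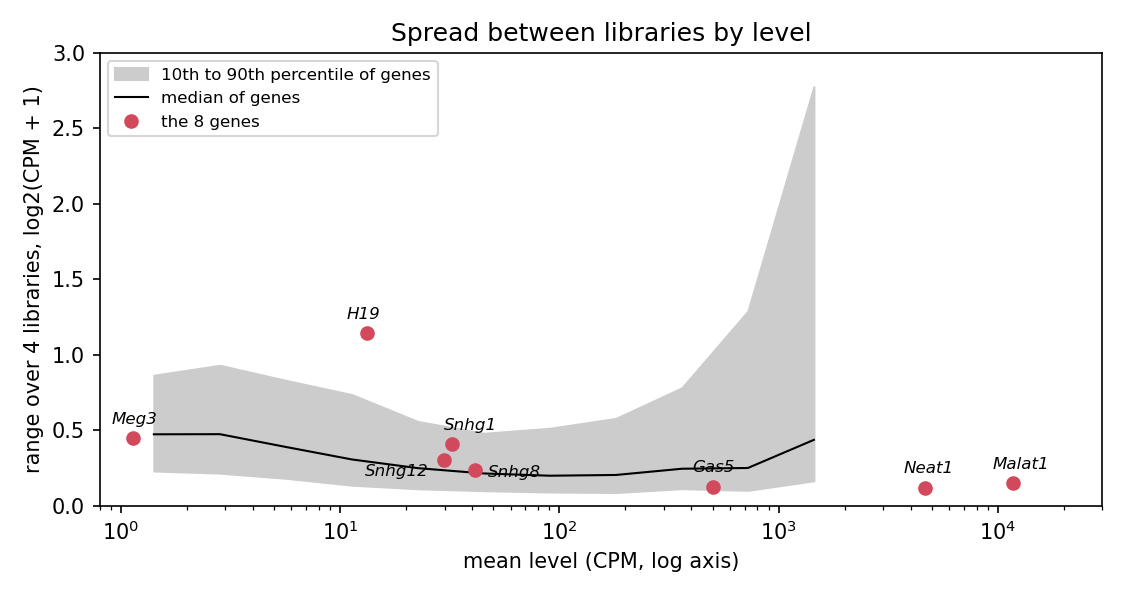
Range of log2(CPM + 1) over the 4 libraries against mean level in CPM on a log axis; points are the 8 genes, the line is the median of all tested genes in bins of level and the band their 10th to 90th percentile, drawn where a bin holds at least 20 genes. H19, at a range of 1.14, lies above the band, and Gas5, at 0.12, lies under the median.

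The other 7 genes differed in how far their libraries spread. Malat1, Neat1 and Gas5 had log2 ranges of 0.15, 0.12 and 0.12, against a median of 0.28 over all tested genes. Snhg8 had 0.23. Above that median lay Snhg12 at 0.31, Snhg1 at 0.41 and Meg3 at 0.45. Snhg1 had a wider range than 82.9% of the 5644 genes of like level, Snhg12 than 68.2% of 5629 and Meg3 than 44.4% of 1213. Their limma adjusted p-values were 0.992 to 0.996.

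Genes of the wider imprinted cluster of chromosome 7 that holds H19 did not all move alike. Igf2, the paternally expressed growth factor beside H19, stood at 7.54, 8.34, 13.5 and 17.11 CPM. Nctc1, a noncoding RNA of the same locus known from muscle, stood at 7.48, 5.37, 8.735 and 12.04 CPM, and Phlda2, an imprinted regulator of placental growth, at 13.9, 12.6, 12.1 and 9.20 CPM. Igf2 and Nctc1 were highest in library 4, as H19 was, and Phlda2 was lowest there. Over the 7 analysed genes of the cluster (of 9 listed), 4 were highest and 2 lowest in library 4. An unadjusted p under 0.05 by limma was found for 1 of the 7, against 6.38% of all tested genes, and none passed the adjusted threshold.

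Markers of other cell types moved between the same libraries. The 17 skeletal muscle genes, all analysed, summed to 4621, 3415, 5619 and 8313 CPM, 2.43-fold from library 2 to library 4 and in the same library order as H19. In that list 16 genes had an unadjusted p under 0.05 (6.38% of all tested genes did) and 0 passed, by limma, with a median log2 range of 1.13; Acta1 (skeletal actin), Atp2a1 (the calcium pump of fast fibres) and Tnnt3 (a troponin) led it, and none was at 0. The 17 fibroblast and matrix genes summed to 4448, 3960, 7320 and 6489 CPM, highest in library 3, and none of them passed. In the lists of gland and hair genes 8 and 5 passed, and in those of keratinocytes, macrophages (9 of 10 tested) and endothelium none did. An unadjusted p under 0.05 by limma was also found for 15 of 15 hair, 9 of 9 gland and 9 of 17 fibroblast genes. It was found for 1 of 10 basal keratinocyte and 1 of 10 endothelial genes, and for 0 suprabasal and 0 macrophage genes. The part of these cells, and of the gland and hair genes above, in the spread of H19 was not tested, and in bulk skin fewer cells of a type and less RNA per cell cannot be told apart. Libraries 1 and 2 share the first part of their sample code, as do libraries 3 and 4. The fibroblast, muscle, endothelial and keratinocyte sums, H19, Igf2 and Nctc1 were higher in both libraries 3 and 4 than in libraries 1 and 2. The hair sum and Phlda2 were lower there, and the macrophage and gland sums did not split in this way. What the codes stand for cannot be told apart from these differences.

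**Figure D4:**
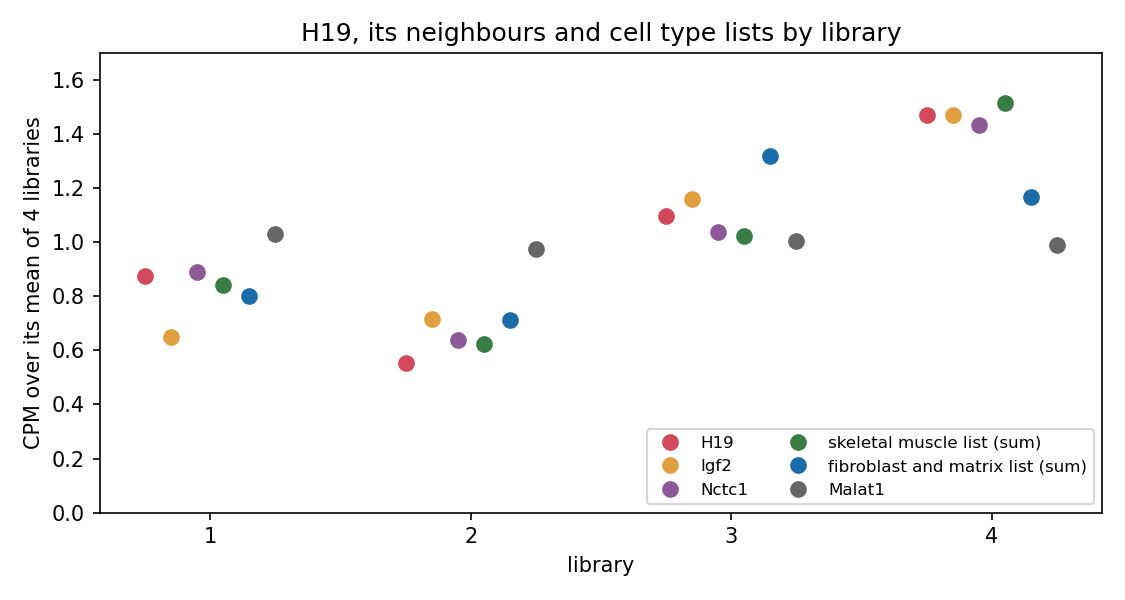
Level in each library over the mean of the 4 libraries, with 0 at the base of the axis, for H19, its neighbours Igf2 and Nctc1, the summed skeletal muscle and fibroblast lists, and Malat1. H19, Nctc1 and the muscle sum are lowest in library 2 and highest in library 4, the fibroblast sum is highest in library 3, and Malat1 stays near 1.

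The genes with the profile closest to H19 were sought among 4052 genes of at least 50 CPM, by the root mean square distance of centred log2 values over 4 libraries. Cox8b, a heart and muscle form of a cytochrome oxidase subunit, was nearest (distance 0.0458), at 58.5, 41.2, 78.4 and 99.3 CPM. Pygm, muscle glycogen phosphorylase, followed (0.0608) and then Cox6a2, another muscle form of an oxidase subunit (0.0711). With 11 genes within 0.1 and 4 libraries, this is a description only.

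Meg3 was low, with a mean near the 1 CPM needed for the test of spread. It held 19, 18, 16 and 29 tags, or 1.05, 0.956, 0.908 and 1.62 CPM, a mean of 1.13 ± 0.328. Library 4 was highest and the other libraries lay close together. Counting 3 tags as the floor, detection began at 0.159 to 0.170 CPM, and intervals and floors cover counting error only. Meg3 (ENSMUSG00000021268.17) lies on the plus strand of chromosome 12, from 109541001 to 109571726. Its main cluster, chr12:109540996-109541001, held 17, 14, 12 and 25 tags, also listed under Gm27596; its share of the tags was 89.5%, 77.8%, 75% and 86.2% in libraries 1 to 4, or 82.1% ± 6.84, and in library 1 the Wilson 95% interval was 68.6 to 97.1%. The other tags lay in clusters at chr12:109545397-109545398 and chr12:109546078-109546079, with at most 3 tags in any library.

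The start of Meg3 is shown because its main cluster is 6 bases wide. The RefSeq promoter is on GRCm38.p6, plus strand, chr12:109540946-109541045, with the bases of the cluster in capitals.
Meg3: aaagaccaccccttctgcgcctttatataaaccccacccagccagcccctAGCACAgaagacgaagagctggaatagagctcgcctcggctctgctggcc

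Other genes of the Meg3 locus were low as well. Dlk1, the paternally expressed Notch-like protein, stood at 0.386 ± 0.011 CPM, Begain at 6.29 ± 0.597, Dio3os at 2.12 ± 0.83 and Dio3, which inactivates thyroid hormone, at 1.496 ± 0.308. Of the 7 listed genes 4 were analysed. Dlk1, under the 1 CPM needed for the test, was not tested, and none of the other 3 passed. The nearest profiles to Meg3 were those of Brd3, a reader of acetylated histones (distance 0.0405), H2az2, a histone variant (0.0488), and Nipsnap2 (0.0515), with 55 genes within 0.1. These distances use log2(CPM + 1), which narrows the profile of a gene near 1 CPM. The log2 range of Meg3 was 0.77 with 0.1 CPM added in place of 1, and 0.13 without library 4. The nearest profiles are therefore a description only. In a wider list of imprinted growth genes, 13 analysed of 14 summed to 587 ± 93.8 CPM, led by Dcn (decorin) at 227 ± 56.2, Gnas at 177 ± 15.7 and Peg3 at 63.1 ± 8.77. None of the 12 that were tested passed.

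Among the snoRNA hosts Gas5 stood highest, at 500, 467, 501 and 546 CPM, a mean of 504 ± 32.6. In unscaled CPM, library 4 was highest and library 2 lowest, 1.17-fold apart. After TMM scaling library 4 stayed highest (log2 9.04), library 2 followed (8.98) and library 3 was lowest (8.91). Gas5 (ENSMUSG00000053332.13), named for its rise in growth-arrested cells, lies on the plus strand of chromosome 1 from 161034422 to 161038539 and holds 10 annotated snoRNA genes. Most of its tags did not lie at its annotated starts. The cluster chr1:161035750-161035755, 6 bases wide, spans the first base of exon 2 (161035752) and held 309, 291, 319 and 346 CPM, or 62.7% ± 0.842 of the tags. The cluster at exon 1, chr1:161035163-161035171, spans 4 annotated starts and held 186, 172, 178 and 196 CPM, or 36.4% ± 0.795. The exon 2 cluster was the higher one in 4 of 4 libraries, and its share of 61.8% in library 1 had a Wilson 95% interval of 60.8 to 62.8%. The next cluster, chr1:161034569-161034665, held 4.23 ± 0.303 CPM.

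Snhg1 had the same arrangement at a lower level. It stood at 37.1, 31.7, 31.7 and 29.0 CPM, a mean of 32.4 ± 3.42, highest in library 1 and lowest in library 4. Snhg1 (ENSMUSG00000108414.1) holds 8 annotated snoRNA genes on the plus strand of chromosome 19, from 8723475 to 8726443. The cluster chr19:8724140-8724143 spans the first base of exon 2 (8724141) and also the annotated start of 1 transcript, Snhg1-209. It held 19.9, 18.0, 17.9 and 16.8 CPM, or 56.2% ± 1.81 of the tags. The exon 1 cluster, chr19:8723483-8723490, held 17.16, 13.7, 13.7 and 12.04 CPM, or 43.5% ± 1.95, and was the lower one in 4 of 4 libraries.

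**Figure D5:**
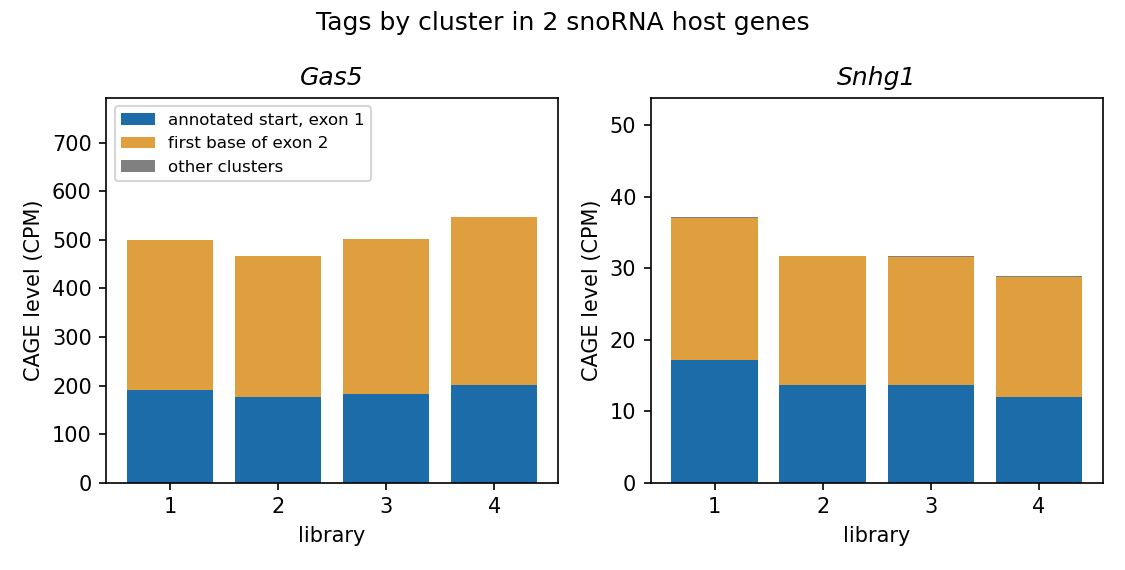
Level of Gas5 (left) and Snhg1 (right) in CPM in each library, stacked by cluster: blue for clusters at annotated starts in exon 1, orange for the cluster at the first base of exon 2. The exon 2 part makes up 61.8 to 63.6% of Gas5 and 53.6 to 57.9% of Snhg1.

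The first spliced junctions are printed to show the transcripts in which exon 2 follows a first exon of 32 bases. The bases are from GRCm38, plus strand, for Gas5-224 (exon 1 from 161035163) and Snhg1-211 (exon 1 from 8723475) of GENCODE M21. Capitals mark the first 20 bases of exon 2. The larger cluster of each gene spans the first capital base and begins upstream of it, at intron bases not printed here.
Gas5 junction: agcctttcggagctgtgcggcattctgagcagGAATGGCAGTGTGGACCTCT
Snhg1 junction: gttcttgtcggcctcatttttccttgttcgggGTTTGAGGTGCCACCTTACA

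Other annotated first exons at the exon 1 cluster of Gas5 measured 27 to 29 bases, and 1 transcript that reads on into the intron has a first exon of 2382 bases. In Snhg1 the annotated starts inside the exon 1 cluster belong to transcripts whose first exons of 703 and 1770 bases read through exon 2, while the 32-base exon of Snhg1-211 begins upstream of the cluster. The origin of the tags at exon 2 was not tested. The level of each host depends on whether they are counted. With only clusters at an annotated start that span no later exon, as in the ratios above, Gas5 stood at 187 CPM and Snhg1 at 14.1 CPM.

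Snhg8 and Snhg12 were almost wholly at their starts. Snhg8 (ENSMUSG00000104960.1, chromosome 3, minus strand, 123507552 to 123508404), host of Snora24, stood at 43.9, 38.7, 38.9 and 44.1 CPM, a mean of 41.4 ± 3.02. Libraries 1 and 4 were the higher pair. Its single cluster, chr3:123508305-123508385, spans 2 annotated starts, with a first exon of 222 bases in the spliced transcript. Snhg12 (ENSMUSG00000086290.9, chromosome 4, plus strand, 132308623 to 132311024), which holds 5 snoRNA genes, stood at 33.2, 26.4, 32.2 and 27.9 CPM, a mean of 29.9 ± 3.30, with libraries 1 and 3 the higher pair. Of its tags 98.6% ± 0.331 lay in chr4:132308611-132308684, which spans 5 annotated starts with first exons of at least 230 bases, and 1.36% ± 0.331 lay at the first base of exon 2 (132309838).

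The clusters of all 4 hosts are also listed under snoRNA genes that lie inside them, such as Snora24 and Snora16a. No snoRNA gene inside the hosts had a host cluster within 5 bases of its own 5′ end. On the opposite strand within 1000 bases of a start, Slc3a2, an amino acid transporter chain, held 10.3 ± 0.665 CPM near Snhg1, Zbtb37 3.12 ± 0.987 CPM near Gas5, and a cluster with no gene name 1.504 ± 0.199 CPM near Snhg8.

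The start regions of the hosts are printed to compare the bases around the caps. They are RefSeq promoters on GRCm38.p6, at chr1:161035116-161035215 (plus strand), chr19:8723437-8723536 (plus), chr3:123508287-123508386 (minus) and chr4:132308628-132308727 (plus), and the capitals mark bases inside the cluster at the start.
Gas5: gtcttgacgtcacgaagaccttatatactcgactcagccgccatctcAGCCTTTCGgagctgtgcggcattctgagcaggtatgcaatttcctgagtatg
Snhg1: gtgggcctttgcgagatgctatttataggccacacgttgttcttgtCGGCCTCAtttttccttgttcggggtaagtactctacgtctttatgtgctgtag
Snhg8: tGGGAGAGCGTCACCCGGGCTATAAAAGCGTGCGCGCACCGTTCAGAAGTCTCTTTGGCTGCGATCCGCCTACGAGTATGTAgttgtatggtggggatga
Snhg12: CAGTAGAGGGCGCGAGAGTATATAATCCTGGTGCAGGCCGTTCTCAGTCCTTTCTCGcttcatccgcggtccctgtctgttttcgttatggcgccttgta

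RefSeq promoters were found for 6 of the 8 genes. Motifs were chosen after these sequences had been read, so the counts describe the letters and are no test. The letters TATA on the coding strand, 45 to 16 bases before the RefSeq start, occurred in 5 of the 6: at -27 in Meg3, -29 in Gas5, -27 in Snhg1, -30 in Snhg8 and -32 in Snhg12, and not in Malat1. They occurred there in 6.72% of 32851 RefSeq promoters. The palindrome TGACGTCA, which reads alike on both strands, began at -57 in Meg3 and -46 in Gas5 and was in 1.79% of promoters of the same length. The longest run of pyrimidines (C or T on the coding strand) from 5 bases before to 15 after the start was 9 in Snhg1 and Snhg12, 7 in Snhg8, 6 in Gas5, 5 in Meg3 and 3 in Malat1. A run of at least 7 was in 10.7% of promoters. In Snhg1 the run of 9 lies just after the last base of the cluster, and in Meg3 the run of 5 lies before its first base. A pyrimidine run that begins at the cap is a known feature of RNAs whose translation follows growth signals (TOP RNAs). Ribosomal protein genes and several snoRNA hosts belong to them. Where the caps of these genes fall within the runs was not tested.

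Genes of related function are given for comparison, with the median of their log2 ranges beside 0.28 for all tested genes. The 18 TOP genes taken for comparison summed to 7387 ± 176 CPM, led by Rplp0 at 869 ± 38.2, Pabpc1 at 823 ± 109 and Rps6 at 819 ± 48.6, with a median range of 0.20. Other snoRNA hosts, 16 analysed of 20, summed to 469 ± 13.2 CPM, led by Snhg5 at 60.1 ± 7.997, Taf1d at 54.7 ± 2.55 and Zfas1 at 49.6 ± 2.39, with a median range of 0.30. Snhg3, left out because its tags lay in a cluster given to a different gene, held 1491, 1548, 1640 and 1617 tags. That is a higher level than Snhg5 in each library. Factors of nonsense-mediated decay, the pathway that degrades spliced Gas5, summed to 534 ± 24.0 CPM over 10 genes, led by Upf1 at 138 ± 11.1 and Smg1 at 88.5 ± 4.90, with a median range of 0.16. None of the genes in these 3 lists passed the test of spread.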

How the data were processed

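Total RNA went into a commercial CAGE library kit, per the labels' protocols. BWA, HISAT2 and mm9 are named in the submitters' processing notes; how tags were joined into clusters is stated in none of the sources used. The authors deposited CPM values for 69391 rows with a gene name or none, which hold 67319 distinct clusters. Positions fitted GRCm38 (17828 of 17849 gene identifiers in GENCODE M21) and are printed 1-based, taking written starts as 0-based from the bases at narrow clusters. All deposited CPM were whole multiples of 1 tag (tolerance 0.02), so tags were recovered and summed per gene. Of 17849 genes, 33 lacked tags. Another 779, Snhg3 and Mir22hg among them, were left out because 90% or more of their tags lay in a cluster given to a different gene, which left 17037.

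Spread was tested with limma 3.58.1 (pseudocount 1 CPM, mean of at least 1 CPM, robust trended prior) with Benjamini-Hochberg adjustment. The test was checked on simulated data with changes in a single library that were larger than the difference of H19 between libraries. That check does not show whether a change of the size of H19 would be found. Alternatives were edgeR 4.0.16 on recovered tags and DESeq2 1.42.0. Log2 ratios added 0.5 tags. Named were the 8 genes, the 3 highest and any called gene of each list (cell type lists are mostly given as sums and counts, and some list genes are not reported here) and the 3 nearest profiles of the 2 most variable members. Members and lists were chosen with earlier results of these data known.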

Additional observations from a re-analysis of the deposited data

Results flagged for a closer look

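The log2 ratio of Snhg8 over Snhg1 had 1 library away from the others: library 4 stood at 0.61, against 0.24, 0.29 and 0.30 in libraries 1 to 3, and the gap made up 0.851 of the whole range. This was the 1 value of 29 tested in this way, and chance alone flags about 1 in 20.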

How the results depend on the processing

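The order of Snhg1 and Snhg12 turned round with the clusters counted: the log2 ratio of Snhg1 over Snhg12 was -0.70 over the most used clusters alone and -1.07 with clusters at an annotated start that span no later exon, an alternative added after seeing the data. The count of all genes that varied, 61, became 104 with no scaling, 33 with edgeR, 272 with DESeq2 and 0 with a filter of 10 tags in every library (936 at an unadjusted p under 0.05, by limma), and 13 to 118 when 1 library was left out; the cause was not tested. None of the 8 genes was called in any setting; without library 4, 7 were tested, since Meg3 fell under 1 CPM. Of the other values that answer a comparison, 66 kept their direction or, for counts of called genes or members, stayed equal or close. A kept direction can hide a change of size. The log2 ratio of Malat1 over Neat1 went from 1.34 to 12.88 with only clusters listed under no other gene. Of values of single genes, 127 stayed within the spread and 23 moved. Those that moved include the levels of Neat1 (1.54 CPM), Gas5 and H19 (both 0) when only clusters listed under no other gene were counted. With totals that count each cluster once, Malat1 stood at 12520 CPM and Neat1 at 4954 CPM, which also moved. No paired analysis was possible because the 4 libraries form 1 group. With libraries 1 and 2 averaged, and libraries 3 and 4, whose codes begin alike, the exact permutation p of each of the 7 neighbour ratios was 0.5, the smallest that 2 means allow. Depth limits Meg3, at 16 to 29 tags a library.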

Other observations

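Clusters at the first base of exon 2 were counted over all genes after those of Gas5 and Snhg1 had been seen. The definition was changed once after a first result had been seen, from clusters listed under the gene to all clusters at the place, and from an arbitrary transcript to the one with the shortest first exon. Over 8579 genes of at least 10 CPM, exon 2 held at least 10% of the tags of both places in 31.9% of 285 genes whose shortest annotated first exon had 1 to 25 bases. The same held in 30.0% of 523 genes at 26 to 40 bases, 17.5% of 822 at 41 to 60 bases and 6.81% of 1469 at 61 to 100 bases. It held in 2.54% of 2564 genes above that and up to 200 bases and 1.47% of 2916 with longer first exons. By this measure, which used a start tolerance of 10 bases, the shortest first exon is 17 bases in Gas5 and 32 in Snhg1. Neither exon starts inside the exon 1 cluster of its gene, and the Gas5 first exons that do have 27 bases or more. A share of at least 50%, as in Gas5 and Snhg1, was found in 7.37% of genes at 1 to 25 bases. It was found in 5.93% at 26 to 40 bases and in 0.206% of those with the longest first exons. These are counts over genes, which are no replicates, and the cause was not tested.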
